A study of Mus musculus with 18 samples.

Results

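The 10 adipocyte genes described here were followed through an RNA sequencing time course of mouse knee cartilage after rupture of the anterior cruciate ligament (ACL). They were listed by name, with earlier results of these data known, and are 10 of the 49184 genes to which the deposited transcripts were assigned. The set holds the lipid droplet genes Plin1, Plin4 and Cidec, the fatty acid handling genes Lpl and Fabp4, the transcription factor Pparg, and the secreted factors Cfd, Adipoq, Lep and Retn. All 10 passed the filter on low counts, and the lowest count of any member in any library was 15 reads, for Lep in a day 7 injured library.

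White adipocytes store triglyceride in one large droplet coated by perilipins and secrete hormones known as adipokines. The transcription factor PPARγ, working with factors of the C/EBP family, drives their differentiation and switches on many genes of lipid uptake and storage. In the knee, adipocytes lie in the infrapatellar fat pad beside the synovium and in the bone marrow, whereas cartilage itself holds chondrocytes.

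The 18 libraries came from cartilage caps of the femoral condyle of male C57Bl/6J mice aged 12 weeks. In injured mice, anaesthetised with isoflurane and given buprenorphine, 1 load of 12 N ruptured the ACL of the right knee, and the left knee of the same mice, which had the same drugs but no load, served as the contralateral control. The groups were naïve mice (n = 6 libraries, labelled with day 7), injured and contralateral knees at day 1 (n = 3 each), and injured and contralateral knees at day 7 (n = 3 each). Each library was a pool of knees, with 4 mice per sample by the text of the series. The study's scheme gives other numbers, namely pools of 2 mice for day 1 and of 4 mice for day 7, and only 6 naïve animals for the 6 naïve libraries, which therefore share mice. The scheme explains the pools of 4 by a loss of part of the cartilage at day 7. The part of this loss in the levels described here was not tested. The labels do not give the pools, so libraries were treated as independent. Left and right knees of the naïve mice were pooled separately, so the spread of the 6 naïve libraries is in part between knees of the same mice.

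Totals of estimated counts ranged from 16074762 to 41794005 per library. The libraries are labelled as chondrocytes, and all 10 chondrocyte markers examined were detected, led by the type II collagen gene Col2a1 at a mean of 381 TPM (transcripts scaled to a fixed total, a level per transcript length). RNA of other cells was present in every library. The summed level of 8 erythroid markers lay between 16793 and 64768 CPM (counts scaled to a fixed total by library size with edgeR's TMM factors and not by gene length), and that of 9 skeletal muscle markers between 2222 and 11434 CPM. Day 7 contralateral replicate 1 stood apart, with 42.5% of its counts in only 10 genes, a share that lay between 16.6% and 29.8% elsewhere. Counts of calls against the day 7 contralateral group are therefore given with and without it. Next came the day 7 injured libraries at 29.8%, 29.8% and 26.4%, then naïve replicate 2 at 25.9%. The TMM factors of the day 7 injured libraries were 0.838, 0.829 and 0.852. That of day 7 contralateral replicate 1 was 0.696, and those of the other libraries lay between 0.962 and 1.16.

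The members lie on 7 chromosomes of the GRCm38 assembly. Plin1 (chr7:79720218-79732903, minus strand) encodes perilipin 1, the coat protein that guards the adipocyte droplet against lipases. Plin4 (chr17:56100591-56109803, minus strand) encodes another perilipin, which binds small nascent droplets. Cidec (chr6:113424634-113435760, minus strand) encodes the protein that fuses droplets into one. Lpl (chr8:68880491-68907448, plus strand) encodes lipoprotein lipase, which frees fatty acids from circulating triglyceride, and Fabp4 (chr3:10204088-10208576, minus strand) encodes a fatty acid carrier of the cytoplasm. Pparg (chr6:115360951-115490399, plus strand) encodes PPARγ. Cfd (chr10:79890853-79892655, plus strand) encodes complement factor D, also called adipsin, and Adipoq (chr16:23146536-23158028, plus strand) encodes adiponectin. Lep (chr6:29060220-29073877, plus strand) encodes leptin, which signals the size of fat stores, and Retn (chr8:3655770-3660110, plus strand) encodes resistin.

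The sequence before the start sites of the members was searched for the motifs of the adipocyte factors. RefSeq start windows (GRCm38.p6, 250 bases before to 50 after the start) were at hand for 8 of the 10 members, in 11 windows. Fabp4 and Lpl had none. The C/EBP palindrome TTGCGCAA, searched on both strands with up to 1 mismatch, was found in 3 of the 11 windows, each of a different member, and 5.92% of all 32851 windows held it. The stretches around these matches are shown because they are the only windows of the members with a match to either adipocyte factor, with the matching bases in capitals. The Lep stretch (chr6:29060106-29060215, plus strand) ends just before its annotated exon and carries the palindrome without mismatch. The Cidec stretch (chr6:113434903-113435014, minus strand) precedes a start site inside the gene and lies in an intron of its longer transcripts, and the Plin1 stretch (chr7:79732816-79732845, minus strand) overlaps the 5′ exon of longer annotated transcripts.
Lep: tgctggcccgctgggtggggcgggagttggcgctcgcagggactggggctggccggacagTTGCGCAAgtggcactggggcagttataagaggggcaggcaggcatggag
Cidec: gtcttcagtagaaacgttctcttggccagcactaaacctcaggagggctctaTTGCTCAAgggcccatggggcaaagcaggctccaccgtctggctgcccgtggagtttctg
Plin1: tctgagaggcaTTGCCCAAgattccctgga

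The PPAR response element, AGGTCANAGGTCA on either strand with up to 2 mismatches in its 12 fixed bases, was found in none of the 11 windows and in 3.86% of all windows. TATAAA was found in 1 of the 11 windows, of Pparg, on the opposite strand to the gene, and in 13.6% of all windows. A match describes the letters of the window and is not evidence of binding. No 2 matches lay in the window of the same member, so none overlapped.

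The members spanned a wide range of levels. Per length, Cfd was the most abundant in naïve cartilage at 168 ± 67.4 TPM (SD, n = 6), followed by Fabp4 at 68.8 ± 22.3 TPM, Lpl at 29.0 ± 8.27 TPM and Adipoq at 25.2 ± 9.54 TPM. Plin1 stood at 14.2 ± 5.08 TPM and Cidec at 12.3 ± 5.28 TPM. Retn at 7.13 ± 3.27 TPM, Pparg at 6.45 ± 0.886 TPM and Plin4 at 4.87 ± 1.57 TPM were close to each other, and Lep was the lowest at 0.778 ± 0.317 TPM. Over the 18 libraries Cfd exceeded Fabp4 in 17, Fabp4 exceeded Lpl in 18, Plin1 exceeded Cidec in 18 and Plin4 exceeded Lep in 18. The middle of the order was not settled, since Pparg exceeded Retn in 9 of 18 libraries, Retn exceeded Plin4 in 11 and Cidec exceeded Pparg in 13.

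At day 7 several of the adipocyte genes were lower in the injured knee than in naïve knees. Plin4, Cidec, Cfd, Lep and Retn fell at the study's thresholds (FDR at most 0.05 and at least 1.5-fold, edgeR quasi-likelihood test with Benjamini-Hochberg adjustment), which is 5 of 10 members. Of all 21129 genes tested in this comparison, 6.11% were called lower and 10.4% higher, and no member was called higher. With limma-voom, the study's tool, run here without its random effect for pools, Plin4 and Cfd alone were called, and the FDRs of Cidec, Lep and Retn were 0.0976, 0.117 and 0.182. Over all genes limma-voom called 925 of 21129 lower and 2254 higher. All 10 members had a log2 fold change below 0, with a median of −1.27, where the median of all genes tested was −0.04. In bulk tissue, fewer adipocytes and less of these RNAs per adipocyte cannot be told apart.

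**Figure D1:**
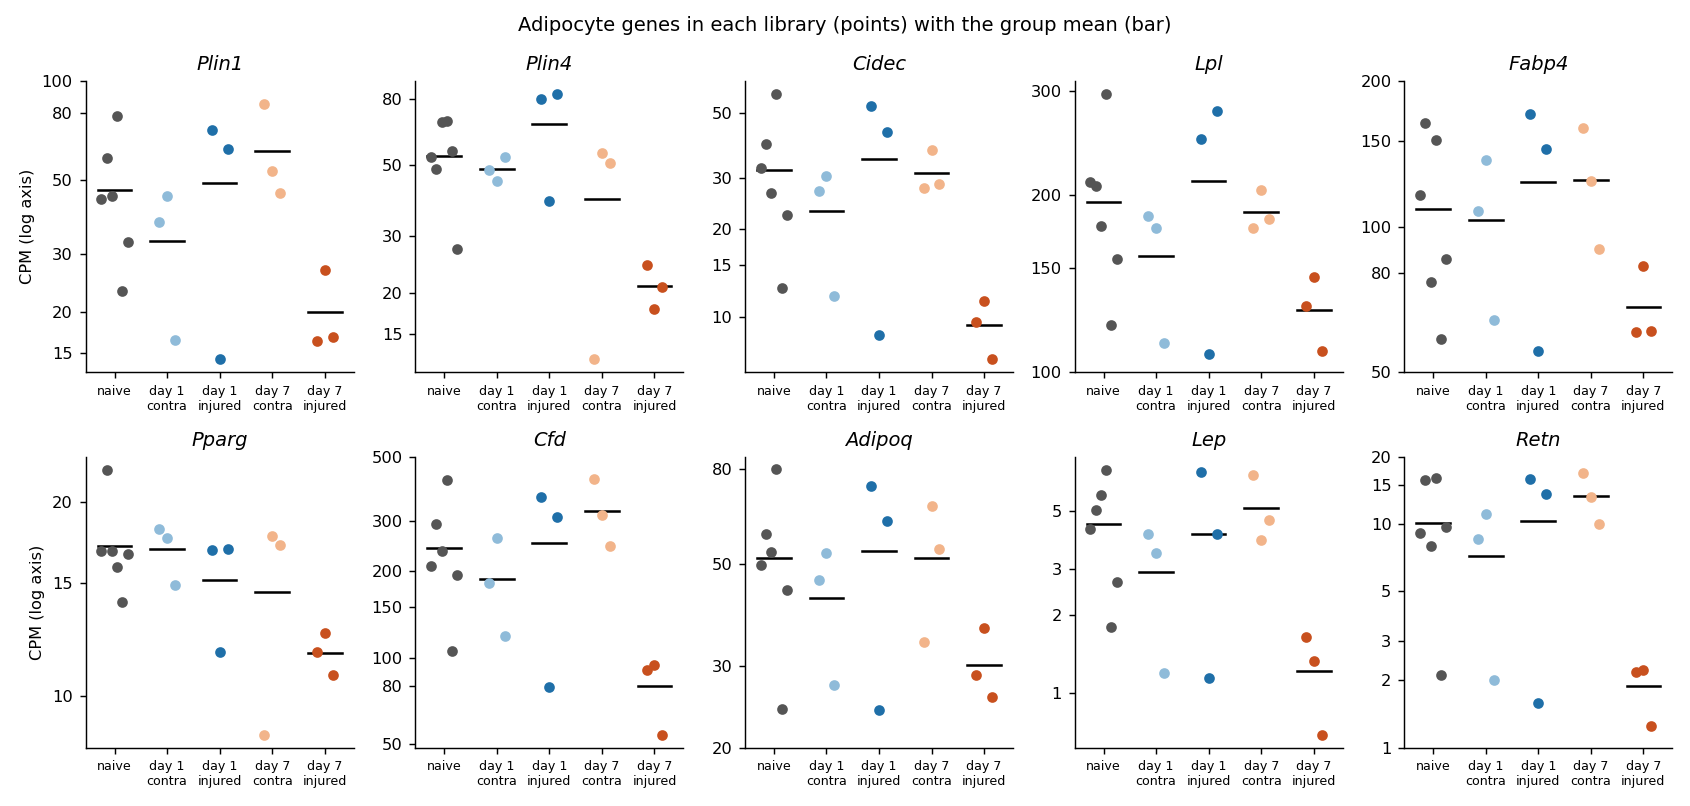
CPM of each adipocyte gene (log axis, one panel per gene) in each of the 18 libraries by group; points are libraries and bars are group means (n = 6 naïve, n = 3 in every other group). The 3 day 7 injured libraries lie at the low end in every panel, together with 1 naïve, 1 day 1 contralateral and 1 day 1 injured library in most panels.

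Among the droplet genes, Plin4 showed the tightest shift. Plin4 stood at 24.5, 17.9 and 21.0 CPM in the day 7 injured libraries, against 27.5, 53.9 and 68.3 CPM as the lowest, median and highest of the naïve libraries. The groups did not overlap, and the log2 fold change was −1.32 ± 0.27 (SE, FDR = 0.00197). Cidec stood at 9.58, 11.3 and 7.17 CPM after injury against 12.6, 29.5 and 58.0 CPM in naïve libraries, again with no overlap, and its log2 fold change was −1.75 ± 0.54 (SE, FDR = 0.0240). Plin1 stood at 16.3, 26.8 and 16.7 CPM against 23.2, 44.3 and 78.5 CPM, and naïve replicate 5 lay among the injured libraries. Its log2 fold change of −1.22 ± 0.47 (SE) did not pass the test (FDR = 0.0663).

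Of the 4 secreted factors, 3 fell. Cfd stood at 90.5, 94.5 and 53.9 CPM in the day 7 injured libraries against 106, 221 and 415 CPM as the lowest, median and highest naïve values, with no overlap and a log2 fold change of −1.58 ± 0.46 (SE, FDR = 0.0182). Lep stood at 1.63, 1.33 and 0.694 CPM against 1.79, 4.64 and 7.18 CPM, likewise without overlap, and its log2 fold change was −1.85 ± 0.60 (SE, FDR = 0.0305). These Lep values rest on 36, 21 and 15 counts. With an offset for transcript length the log2 fold change of Lep was −1.07 (FDR = 0.214) and the call was lost, whereas the other 4 calls remained. Retn showed the largest change among the members, −2.41 ± 0.77 (SE, FDR = 0.0277), with 2.18, 2.22 and 1.25 CPM after injury against 2.11, 9.41 and 15.998 CPM in naïve libraries. Naïve replicate 5 overlapped the injured group for Retn. Adipoq, the fourth adipokine and the one most restricted to adipocytes, stood at 28.8, 36.2 and 25.7 CPM against 24.2, 51.3 and 80.2 CPM and was not called (log2 fold change −0.75 ± 0.35, SE; FDR = 0.123).

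The remaining members had smaller differences. Pparg stood at 11.7, 12.5 and 10.8 CPM against 14.01, 16.7 and 22.4 CPM in naïve libraries. The groups did not overlap and its FDR was 0.0133, but its log2 fold change of −0.53 ± 0.15 (SE) is below the 1.5-fold limit. Lpl stood at 129, 145 and 109 CPM against 120, 192 and 297 CPM (log2 fold change −0.59 ± 0.29, SE; FDR = 0.141). Fabp4 stood at 60.4, 82.9 and 60.7 CPM against 58.6, 101 and 164 CPM (log2 fold change −0.66 ± 0.37, SE; FDR = 0.190). Both overlapped the naïve range.

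Over the set, all 3 day 7 injured libraries lay below every naïve library for 5 of 10 members, and 10.8% of the 21262 genes of the fit with all 18 libraries did so. The number of members called depended on single injured libraries. Without day 7 injured replicate 1 or 2 it was 2 (Plin4 and Cfd), and without replicate 3 it was 1 (Plin4), while without naïve replicate 5 it was 7. Over all genes 1020 of 21690, 885 of 21734 and 797 of 21722 were called lower without injured replicates 1, 2 and 3, and 1318 of 21031 without naïve replicate 5. Plin4 was called in all 19 alternatives run for this comparison. Of these, 17 changed the fit, and the others changed only the thresholds.

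**Figure D2:**
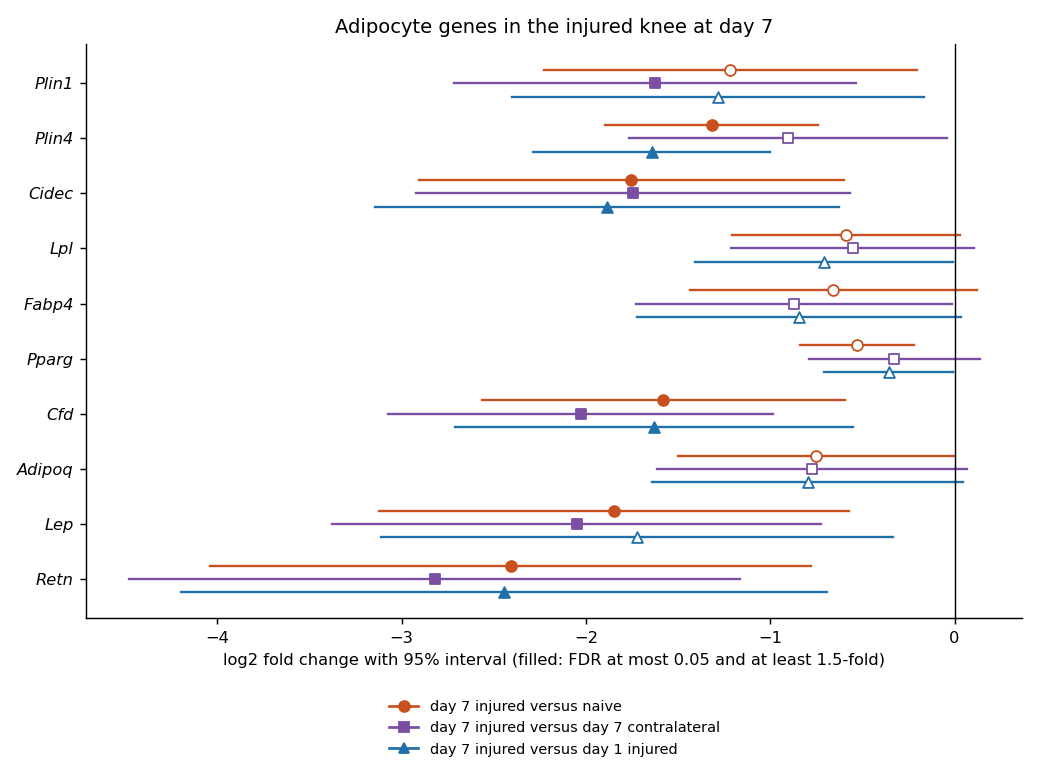
Log2 fold change (x axis) of each adipocyte gene (y axis) in the day 7 injured knee against naïve (circles), day 7 contralateral (squares) and day 1 injured libraries (triangles), with 95% intervals; filled symbols pass the FDR and fold limits. Every estimate lies left of 0, from −0.33 for Pparg against the contralateral knee to −2.82 for Retn in the same comparison.

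The contralateral knee of the same mice gave a second control at day 7. Cfd, Retn, Lep, Plin1 and Cidec fell in the injured knee against it, again 5 of 10 members, where 3.23% of the 21262 genes tested were called lower and 9.33% higher. Limma-voom called Cfd alone, with 452 of 21262 genes called lower. All 10 members were below 0 with a median log2 fold change of −1.26, against −0.05 for all genes tested. This comparison and the one with naïve mice share the injured libraries, so the 2 sets of calls are not separate evidence.

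Cfd stood at 417, 313 and 245 CPM in the day 7 contralateral libraries, far above the 53.9 to 94.5 CPM of the injured ones, with a log2 fold change of −2.03 ± 0.50 (SE, FDR = 0.00785). Retn stood at 16.8, 13.1 and 9.97 CPM in the contralateral libraries and had a log2 fold change of −2.82 ± 0.79 (SE, FDR = 0.0178). Lep stood at 6.86, 3.88 and 4.60 CPM with a log2 fold change of −2.05 ± 0.63 (SE, FDR = 0.0302), which was −1.23 (FDR = 0.219) with the offset for transcript length. Every contralateral library was above every injured one for all 3 of these adipokines. Plin1 stood at 85.3, 53.3 and 45.9 CPM, also without overlap (log2 fold change −1.62 ± 0.52, SE; FDR = 0.0360). Cidec stood at 27.7, 37.3 and 28.6 CPM, without overlap (log2 fold change −1.75 ± 0.56, SE; FDR = 0.0374). With the offset for transcript length Plin1, Cfd and Retn were called but Cidec and Lep were not, with 662 of 21262 genes called lower.

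For Plin4 the library that stood apart decided the result. Contralateral replicate 1 held 12.5 CPM, below all injured libraries, while replicates 2 and 3 held 54.4 and 50.7 CPM. With it, the log2 fold change was −0.90 ± 0.41 (SE, FDR = 0.140), and without it Plin4 was called. The same library held the lowest Pparg of all 18 at 8.73 CPM, while replicates 2 and 3 held 17.7 and 17.1 CPM, and it held the highest Plin1, Cfd and Retn. Without it 3 members were called (Plin4, Cfd and Retn), where 1.99% of 21808 genes tested were called lower. Lpl, Fabp4, Adipoq and Pparg were not called in this comparison, with log2 fold changes of −0.55 ± 0.31, −0.87 ± 0.41, −0.77 ± 0.40 and −0.33 ± 0.22 (SE). All 3 injured libraries lay below all 3 contralateral ones for 7 of 10 members, against 14.3% of all genes. Leaving out injured replicate 1 left 3 members called, leaving out replicate 2 left 3, and leaving out replicate 3 left none by edgeR, although 5 were called with all libraries. Over all genes 788 of 21823, 426 of 21833 and 279 of 21817 were called lower in these fits.

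Injured knees were also compared across time. From day 1 to day 7 after injury, Plin4, Cidec, Cfd and Retn were lower at day 7, which is 4 of 10 members, where 6.38% of the 21129 genes tested were called lower. Limma-voom called Plin4 alone, with 1067 of 21129 genes called lower. The median log2 fold change of the members was −1.46, against −0.00 for all genes. Plin4 stood at 79.6, 38.7 and 82.6 CPM at day 1, all above the day 7 libraries (log2 fold change −1.64 ± 0.30, SE; FDR = 0.00123). It was the only member without overlap between these groups. Of all genes, 17.5% had all 3 day 7 injured libraries below every day 1 injured library.

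The overlapping library was day 1 injured replicate 2. Cfd stood at 363, 79.1 and 309 CPM in the 3 day 1 injured libraries, Cidec at 52.9, 8.68 and 43.1 CPM, and Retn at 15.9, 1.59 and 13.6 CPM. For each of them replicate 2 lay within the day 7 injured range. Their log2 fold changes from day 1 to day 7 were −1.63 ± 0.51, −1.88 ± 0.59 and −2.44 ± 0.82 (SE), with FDRs of 0.0294, 0.0309 and 0.0421. A fit of only the groups compared called Plin4 and Cidec but not Cfd and Retn, with 1037 of 19383 genes called lower. Without day 1 injured replicate 2, 9 of the 10 members were called, all but Pparg, and 1062 of 21560 genes tested were called lower. Without any other single library of these groups only Plin4 was called among the members. Over all genes 1173 of 21661 and 884 of 21636 were then called lower without day 1 injured replicates 1 and 3. Without day 7 injured replicates 1, 2 and 3 the counts were 946 of 21690, 849 of 21734 and 891 of 21722.

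At day 1 no member was called. In injured against contralateral knees, injured knees against naïve mice, and contralateral knees against naïve mice, edgeR called 0 of the 10 members and 0% of the 21129 genes tested, and no member had an unadjusted p under 0.05. DESeq2 and limma-voom also called no member in these comparisons. Over all genes limma-voom called 0, and DESeq2 called 0 in the first, 15 in the second (all lower) and 1 in each direction in the last. The log2 fold changes of the members in day 1 injured against contralateral knees ran from −0.16 (Pparg) to 0.59 (Cidec), with standard errors from 0.16 to 0.73. Of the 10 members, 9 were above 0 in that comparison, and the median was 0.44, against −0.00 for all genes. In contralateral knees against naïve mice all 10 were below 0, with a median of −0.33, against −0.00 for all genes. For injured knees against naïve mice 8 were above 0 and the median was 0.06.

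Among the uninjured knees no member was called. Day 7 contralateral libraries against naïve libraries gave 0 of 10 members called, 0% of the 21262 genes tested, and no member with an unadjusted p under 0.05. The median log2 fold change of the members was 0.10, against −0.03 for all genes. Day 7 against day 1 contralateral libraries also gave 0 of 10 members, no unadjusted p under 0.05 among them, and 0.0188% of genes called in either direction. DESeq2 and limma-voom called no member in either comparison. Over all genes limma-voom called 0, and DESeq2 called 18 higher and 13 lower in the first and 70 higher and 10 lower in the other. For 4 of 10 members all day 7 injured libraries lay below all day 1 contralateral libraries, against 21.7% of all genes.

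The injury effect at day 7 was set against that at day 1 in 1 contrast of the 4 groups. No member passed, although 7 of 10 had an unadjusted p under 0.05 and all 10 estimates were below 0 with a median of −1.79. Of all 21262 genes, 16.3% had an unadjusted p under 0.05, the median was −0.03, and 3.77% were called in either direction and 0.245% lower. Cfd came closest at −2.44 ± 0.68 (SE, FDR = 0.0543). DESeq2 called Cfd, Lep and Retn with 160 of 21262 genes lower, limma-voom called no member with 40 lower, and without day 1 injured replicate 2 the edgeR test called 5 members (Plin1, Cidec, Cfd, Lep and Retn) and 91 of 21704 genes tested as lower. Without day 7 contralateral replicate 1 it called Plin4, with 70 of 21808 genes lower. Without day 1 contralateral replicate 2 it called Cfd, with 33 of 21750 genes lower. The difference between the days is therefore reported as not established for any member.

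**Figure D3:**
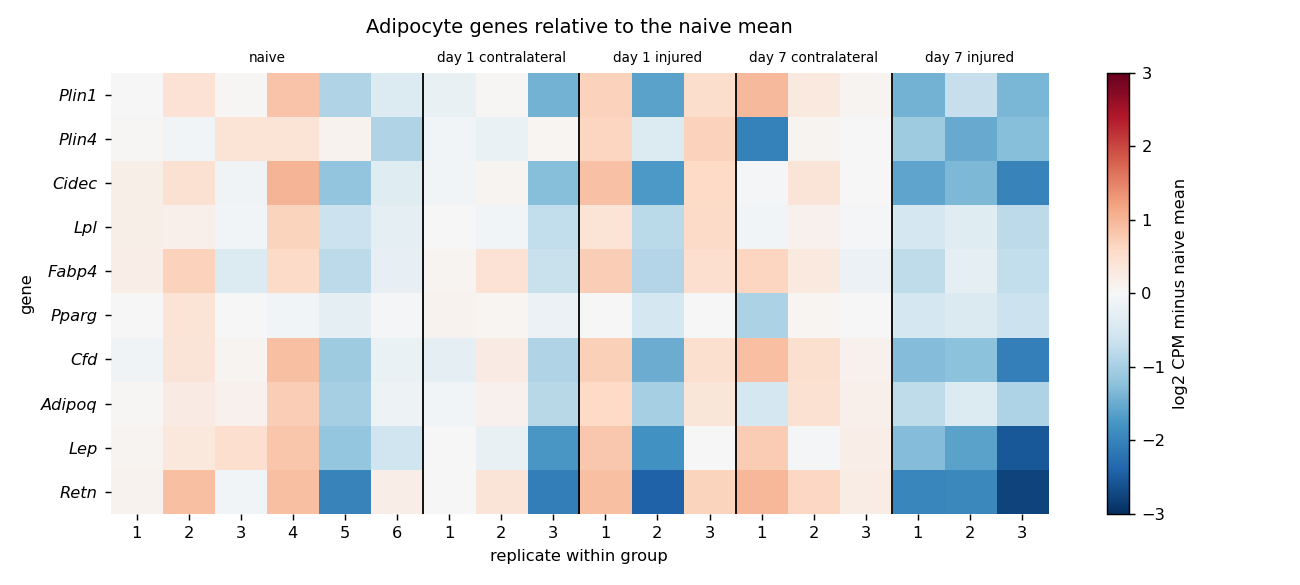
Log2 CPM of each adipocyte gene (rows) in each library (columns, by group and replicate) minus its mean in the naïve libraries; blue is below and red above that mean. Most genes of a column share a colour, and naïve replicate 5, day 1 contralateral replicate 3 and day 1 injured replicate 2 are mostly blue, like the day 7 injured libraries.

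The members varied together from library to library, also within groups. When the 18 libraries were ranked for each gene, day 7 injured replicates 1 and 3 were among the lowest 6 for all 10 members and replicate 2 for 8 of them. Of the other libraries, day 1 injured replicate 2 was among the lowest 6 for 10 members, naïve replicate 5 for 9 and day 1 contralateral replicate 3 for 8. At the other end, naïve replicates 2 and 4 and day 1 injured replicates 1 and 3 were among the highest 6 for 9 members each. Within the day 1 injured group Retn ran from 1.59 to 15.9 CPM, so the spread inside 1 group could be wide.

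The 3 libraries with little adipocyte RNA outside the day 7 injured group shared other features. The summed level of 8 synovial fibroblast markers was 1593 CPM in naïve replicate 5, 1841 CPM in day 1 contralateral replicate 3 and 1960 CPM in day 1 injured replicate 2, each the highest of its group. In day 7 injured libraries it was 1032, 1470 and 2102 CPM. Most of this list's level was Prg4, at 87.5% of its mean TPM, a gene that surface chondrocytes also express. The sum is therefore not a measure of synovial fibroblasts alone. The muscle markers summed to 2884, 4222 and 3199 CPM in the same 3 low libraries, each the lowest of its group, and to 4545, 2222 and 3907 CPM in the day 7 injured libraries. Day 7 injured replicate 2 had the lowest muscle sum and the highest member sum of its group (431 CPM, against 375 and 307 CPM). In the day 7 contralateral libraries the muscle sums were 3802, 4181 and 4770 CPM and the member sums 944, 887 and 727 CPM. All 9 muscle markers were below 0 in day 7 injured against naïve libraries, with a median log2 fold change of −0.77. The part of either marker list in the result was not tested.

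Ratios between members also differed after injury. Each gene was divided by Adipoq within a library, which cancels the library size. The Cfd to Adipoq ratio was 3.15, 2.61 and 2.10 in day 7 injured libraries, below the naïve range of 4.20 to 5.17, and the Cidec to Adipoq ratio was 0.333, 0.311 and 0.279, below the naïve range of 0.501 to 0.723. The ratios of Plin1, Lep and Retn to Adipoq also lay below all naïve libraries, while those of Lpl, Fabp4, Pparg and Plin4 overlapped them. For Plin1 the margin was small, with 0.740 as the highest injured ratio and 0.744 as the lowest naïve one. The share of all genes whose ratio to Adipoq lies below the naïve range is not given here, so these separations have no background. Fabp4 kept a median ratio to Adipoq of 2.29 after injury against 2.15 in naïve libraries. These ratios were chosen after the values had been seen and are given with no test.

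**Figure D4:**
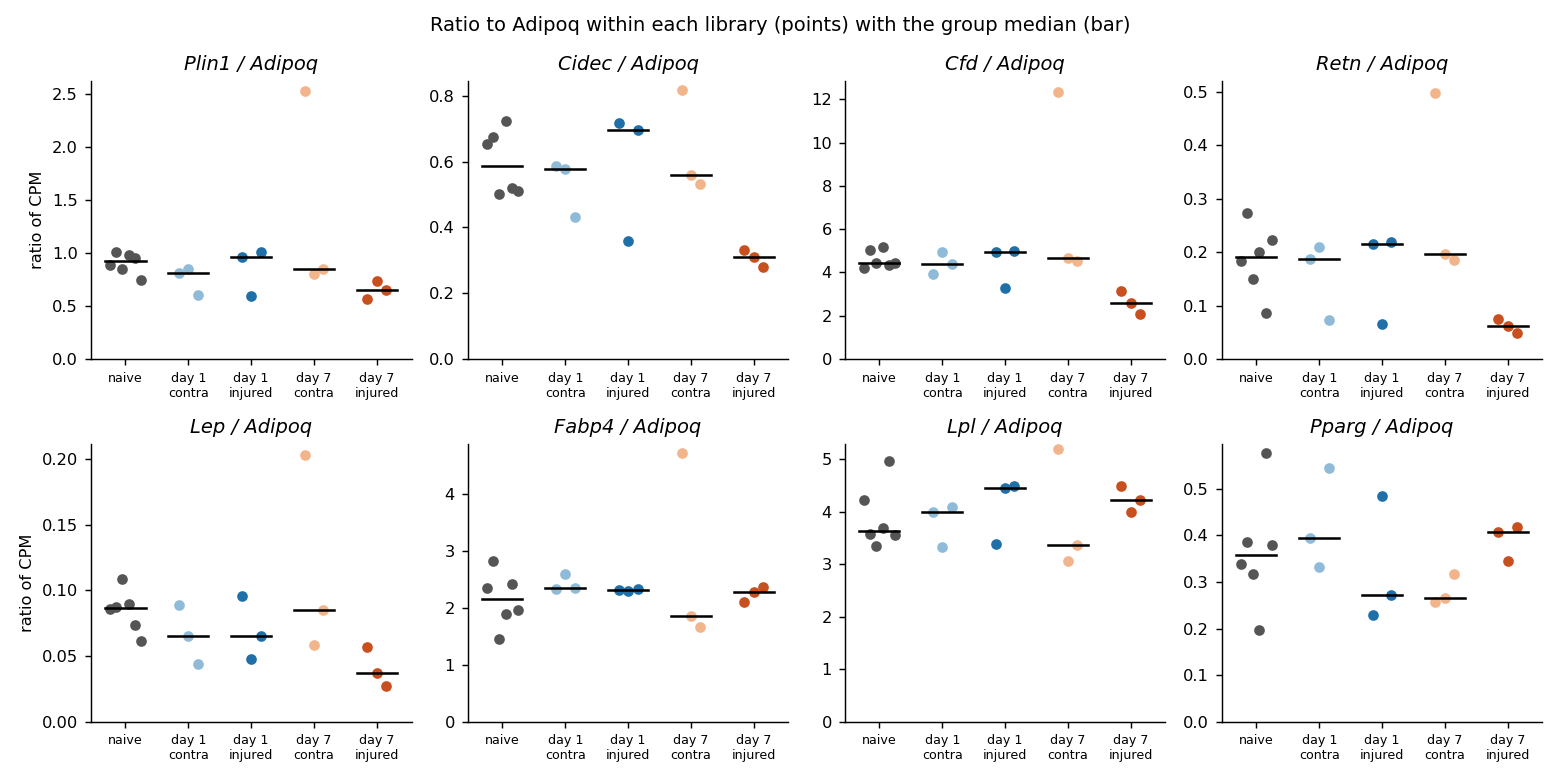
Ratio of CPM of 8 adipocyte genes to Adipoq in each library (points) by group, with the group median (bar). Day 7 injured libraries lie below all naïve libraries for Plin1, Cidec, Cfd, Retn and Lep and within their range for Fabp4, Lpl and Pparg; day 7 contralateral replicate 1 is high in 7 of the panels, where Adipoq was 33.8 CPM.

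The low ratios were not confined to day 7. Day 1 injured replicate 2 had a Cfd to Adipoq ratio of 3.28 and a Cidec to Adipoq ratio of 0.360, both below the naïve range, and the Retn to Adipoq ratio was 0.0659 there and 0.0736 in day 1 contralateral replicate 3. Those of Plin1 and Lep were 0.596 and 0.0474 in day 1 injured replicate 2. In day 1 contralateral replicate 3 they were 0.601 and 0.0436, and that of Cidec was 0.432. All of these were below the naïve range, whereas the Cfd ratio of day 1 contralateral replicate 3, 4.37, was within it. Both of these libraries were among those low in most members. Ratios below the naïve range also occurred in libraries that were not low in most members. The Cfd ratio was 3.95 in day 1 contralateral replicate 1, against a lowest naïve ratio of 4.20. The Lep ratio was 0.0581 in day 7 contralateral replicate 2, against a lowest naïve ratio of 0.0611.

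Pparg is read as isoforms that differ at the amino terminus. Annotated transcripts encoding the 475-residue protein, PPARγ1, were Pparg-202 and Pparg-204, and the one encoding the 505-residue protein, PPARγ2, which is the isoform known for adipocytes, was Pparg-201. In naïve libraries the 475-residue transcripts summed to 3.62 ± 0.728 TPM and the 505-residue transcript stood at 1.02 ± 0.491 TPM (SD, n = 6). In day 7 injured libraries they stood at 2.04 ± 0.315 and 0.516 ± 0.0792 TPM (SD, n = 3). The 505-residue transcript stood at 0.472, 0.608 and 0.469 TPM after injury and at 0.572, 0.859 and 1.83 TPM as the lowest, median and highest of the naïve libraries, so the groups overlapped. For the 475-residue transcripts the highest injured value of 2.24 TPM was below the lowest naïve value of 2.57 TPM. In day 7 contralateral replicate 1 the 475-residue transcripts held 0.159 TPM on 20.5 estimated counts. Reads shared by the isoforms were divided by the authors' model, so these splits are estimates, and they were not tested.

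Of the members, 3 held transcripts not annotated as protein coding. These took between 12.4% and 70.7% of the Lpl TPM, between 4.12% and 31.9% of the Pparg TPM and between 0.469% and 2.76% of the Fabp4 TPM across libraries. The median share for Lpl was 28.9%. Its highest share was in day 7 contralateral replicate 1, where the protein-coding Lpl-201 held 4.155 of 14.2 TPM. With protein-coding transcripts alone, Pparg and Plin1 were called as well against naïve mice, which made 7 of 10 members, where 894 of 15634 genes tested were called lower. This setting also changed the genes tested and the scaling, and all Plin1 transcripts are protein coding. For Lpl these were mostly Lpl-203, at 23.1% of the gene's mean TPM, a transcript annotated for nonsense-mediated decay that holds a coding sequence of the same length as the protein-coding Lpl-201.

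Other gene lists are read against the shares of all genes called in the same comparisons, 10.4% higher and 6.11% lower against naïve mice and 9.33% higher and 3.23% lower against the contralateral knee. Without contralateral replicate 1 the latter were 9.31% and 1.99%. All 10 of a list of further markers were below 0 against naïve mice, with a median log2 fold change of −1.16, and 4 of them fell. These were Adig (adipogenin, −2.63 ± 0.85), Lgals12 (a galectin of the droplet surface, −1.99 ± 0.54), Sncg (γ-synuclein, −1.04 ± 0.27) and Car3 (carbonic anhydrase 3, −1.03 ± 0.36, SE). Car3 was the most abundant at a mean of 144 TPM over the 18 libraries and is also expressed by muscle. Against the contralateral knee Adig and Lgals12 fell again, 2 of 10, and again all 10 were below 0, while without contralateral replicate 1 Lgals12 alone was called.

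Triglyceride breakdown genes fell in part. Against naïve mice 2 of 6 fell, Lipe (hormone-sensitive lipase, −0.97 ± 0.32) and Adrb3 (the β3-adrenergic receptor that triggers lipolysis in adipocytes, −2.06 ± 0.69, SE), and the median of the list was −0.65. Adrb3 was low throughout, at 2.93 ± 1.18 CPM in naïve (SD, n = 6) and 0.703 ± 0.117 CPM in day 7 injured libraries (SD, n = 3). Against the contralateral knee 3 of 6 fell, these and Pnpla2 (adipose triglyceride lipase, −0.92 ± 0.30, SE), the most abundant of the list at a mean of 24.2 TPM. None of the 3 was called by edgeR without contralateral replicate 1, where the median of the list was −0.64 against −0.84 with it.

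Synthesis genes lay below 0 throughout. All 14 genes of fatty acid and triglyceride synthesis had log2 fold changes below 0 against naïve mice, with a median of −0.64, but only 2 of 14 fell, Lpin1 (lipin 1, −0.78 ± 0.20) and Dgat2 (which makes triglyceride from diacylglycerol, −0.92 ± 0.32, SE). Scd1, a fatty acid desaturase and the most abundant of the list at a mean of 88.7 TPM, had −1.26 and was not called (FDR = 0.117). Against the contralateral knee 3 of 14 fell, Dgat2, Dgat1 and Agpat2, with a median of −0.69, and without contralateral replicate 1 these calls were replaced by Lpin1 alone.

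Lipid genes that other cells also use were mixed. Of 9 other droplet genes, Hilpda, which is induced by low oxygen, rose against naïve mice (0.87 ± 0.21, SE), 1 of 9, and G0s2, an inhibitor of lipolysis, fell against the contralateral knee (−0.75 ± 0.23, SE), 1 of 9. G0s2 was not called without contralateral replicate 1, and Hilpda was. Plin2, the perilipin of many cell types and the most abundant of that list at a mean of 31.9 TPM, had 0.07 against naïve mice and was not called. Medians of the list were −0.02 and −0.22. Of 7 genes of fatty acid uptake and activation, Acsl1, an acyl-CoA synthetase, fell in both comparisons (−0.64 ± 0.14 and −0.68 ± 0.15, SE), and Lmf1, which helps lipases mature, rose against the contralateral knee (0.59 ± 0.16, SE) and had 0.39 with FDR = 0.0419 against naïve mice, below the fold limit. Without contralateral replicate 1 the calls against the contralateral knee were Lmf1 and Acsl1 as before. The medians were 0.05 and −0.18, and Cd36, a fatty acid translocase, was the most abundant at a mean of 40.7 TPM.

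Other adipogenic transcription factors held calls in both directions. Against naïve mice 2 of 11 rose, Ebf2 (1.25 ± 0.29) and Zfp423 (1.11 ± 0.13, SE), both known from adipocyte precursors, and 1 fell, Mlxipl, the glucose-sensing factor ChREBP (−1.11 ± 0.39, SE). Zfp423 went from 10.3 ± 1.60 CPM in naïve (SD, n = 6) to 22.03 ± 3.17 CPM in day 7 injured libraries (SD, n = 3). Against the contralateral knee Ebf2, Zfp423 and Ebf1 rose, 3 of 11, and Cebpa fell (−0.85 ± 0.23, SE), 1 of 11. Cebpa was not called without contralateral replicate 1, while the 3 higher calls remained. Cebpa, which encodes C/EBPα and was the most abundant of the list at a mean of 15.5 TPM, is also expressed by marrow myeloid cells. The medians were −0.01 and −0.21.

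Among 8 other adipokines, Apln (apelin, 2.10 ± 0.52) and Rbp4 (retinol binding protein 4, 0.86 ± 0.30, SE) rose against naïve mice and Nrg4 (neuregulin 4, −1.13 ± 0.21, SE) fell, with a median of −0.24. Against the contralateral knee Apln alone was called, 1 of 8, and the median was −0.18, while without contralateral replicate 1 Lcn2 and Nrg4 were called lower as well. Lcn2 (lipocalin 2, made by neutrophils too) was the most abundant at a mean of 519 TPM and was not called with all libraries. Of 6 adipokine receptors, Cdh13, which encodes the adiponectin-binding T-cadherin, rose in both comparisons (1.09 ± 0.20 and 1.44 ± 0.25, SE), and Ffar2, a receptor of short-chain fatty acids, fell against the contralateral knee (−0.92 ± 0.23, SE), a call lost without contralateral replicate 1. The medians were −0.29 and −0.39. The adiponectin receptor gene Adipor1, the most abundant at a mean of 39.3 TPM, was not called in either comparison.

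Markers of brown fat gave no call. Of 8, 6 passed the filter, Ucp1 was at 3 counts or fewer in every library, and none was called in either comparison, with medians of −0.54 and 0.19. Cox8b was the most abundant at a mean of 28.9 TPM and is also a muscle gene. Of 8 genes of the adipogenic marrow stroma, Foxc1 rose against naïve mice (0.65 ± 0.10, SE) and none was called against the contralateral knee, where Foxc1 was called without replicate 1. The medians were −0.03 and −0.20, and Hp was the most abundant at a mean of 173 TPM.

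**Figure D5:**
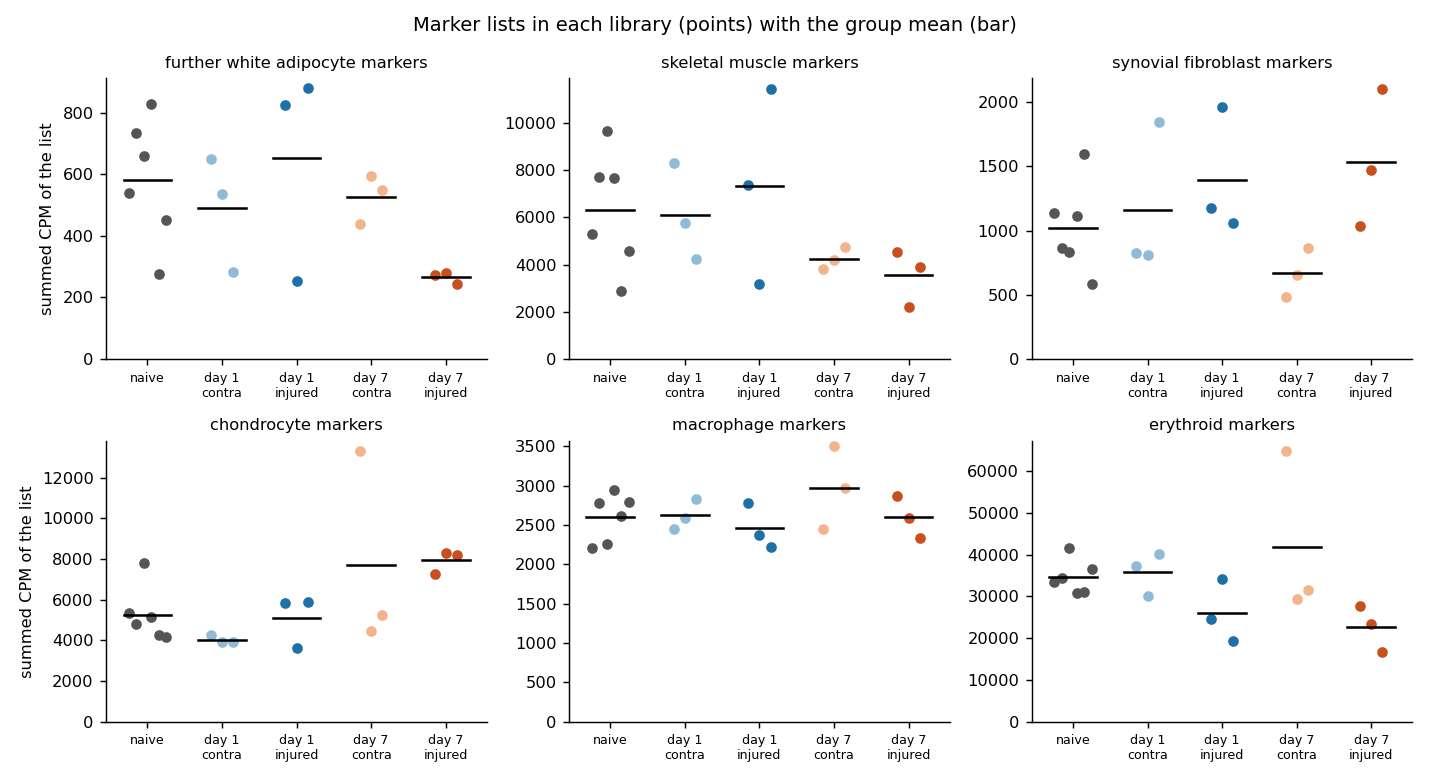
Summed CPM of 6 marker lists in each library (points) by group, with the group mean (bar). Day 7 injured libraries lie between 243 and 280 CPM for the further white adipocyte markers, near the 3 low libraries of the other groups; chondrocyte and erythroid markers are highest in day 7 contralateral replicate 1.

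Markers of other cells moved as well at day 7. Of 10 chondrocyte markers, 4 rose against naïve mice (Sox9, Col11a1, Acan and Comp) and 1 fell (Chad), with a median of 0.36, and 5 rose against the contralateral knee, the same 4 and Hapln1, with a median of 0.58. Hapln1 was not called without contralateral replicate 1, and the other 4 were. Acan, the gene of the main cartilage proteoglycan, went from 372 ± 120 CPM in naïve (SD, n = 6) to 1088 ± 153 CPM in day 7 injured libraries (SD, n = 3). The list summed to 5259 ± 1332 CPM in naïve and to between 7279 and 8307 CPM in injured libraries. The part of these markers in the adipocyte result was not tested.

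Some marrow and blood markers were called lower. Of 8 erythroid markers 4 fell against naïve mice, Alas2 and Slc4a1 among them, and 5 against the contralateral knee (Alas2, Slc4a1, Ermap, Hbb-bt and Hba-a2), with medians of −0.59 and −0.66. Without contralateral replicate 1, where these markers were highest, 0 of 8 were called against the contralateral knee by edgeR, with a median of −0.45. The haemoglobin genes have near-identical copies, so the split of their reads is uncertain. Alas2, the haem synthesis enzyme of red cell precursors, had −0.73 ± 0.16 and −0.66 ± 0.18 (SE), Hbb-bt had −0.56 ± 0.20 and −1.21 ± 0.38 (SE), Hba-a2 had −0.58 ± 0.21 and −0.86 ± 0.28 (SE), and Hbb-bs was the most abundant at a mean of 15613 TPM. Of 8 neutrophil and marrow myeloid markers 2 fell against naïve mice, S100a8 and S100a9, and 3 against the contralateral knee, Retnlg, Ltf and Camp, with medians of −0.37 and −0.68. Without contralateral replicate 1 the calls against the contralateral knee were S100a8 and S100a9 in place of those 3. S100a8 was the most abundant at a mean of 4107 TPM. Their part in the adipocyte result was not tested.

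Some endothelial markers were called higher, and few synovial ones. Of 8 endothelial markers 4 rose against naïve mice (Pecam1, Cdh5, Tie1 and Emcn) and 3 against the contralateral knee (all but Tie1, which was also called without contralateral replicate 1), with medians of 0.62 and 0.38, and Pecam1 was the most abundant at a mean of 17.8 TPM. Of 8 synovial fibroblast markers, 1 rose against naïve mice, Thy1 (1.91 ± 0.16, SE). This count is near the 10.4% of all genes called higher. Against the contralateral knee 2 of 8 rose, Thy1 (1.89 ± 0.19, SE) and Pdpn (2.74 ± 0.89, SE), where 9.33% of all genes did. Without contralateral replicate 1 the Pdpn call was lost, which left 1 of 8, against 9.31% of all genes. The medians were 0.36 and 0.30. Prg4, the lubricin gene, was the most abundant at a mean of 412 TPM and is also expressed by surface chondrocytes.

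Muscle and immune markers gave few calls. None of 9 skeletal muscle markers was called, yet all 9 were below 0 in both comparisons, with medians of −0.77 and −0.28, and Acta1 was the most abundant at a mean of 569 TPM. None of 10 macrophage markers was called, with medians of 0.33 and 0.08 and Lyz2 the most abundant at a mean of 928 TPM. Of 8 B cell markers Ebf1 alone, which is also on the list of adipogenic factors, rose against the contralateral knee, with medians of −0.18 and −0.41 over the list and Ighm the most abundant at a mean of 118 TPM. Ighm was called lower as well without contralateral replicate 1.

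Genes with the pattern most like that of the members were sought among the other 21252 genes. The measure was Pearson's r over the 18 libraries between log2 CPM and the mean standardised profile of the members. The top 10 were Car3, Gpt, Cdo1, Pck1, Acsm3, Adhfe1, Pnpla3, Tmem45b, Fam13a and Lgals12, with r from 0.951 to 0.966. Car3 and Lgals12 were on the list of further adipocyte markers and Pck1, the gluconeogenic and glyceroneogenic enzyme, on that of synthesis. Gpt encodes alanine aminotransferase, Cdo1 cysteine dioxygenase and Pnpla3 a lipase-like protein of lipid droplets. Pck1 averaged 37.1 CPM in naïve and 7.01 CPM in day 7 injured libraries. With the day 7 contralateral libraries left out, 5 of the 10 stayed among the top 10. The 18 libraries share their normalization and several low or high libraries, so r describes these libraries.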

How the data were processed

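RNA of pooled mouse femoral cartilage was sequenced from stranded total RNA libraries depleted of ribosomal RNA. Per the study's methods, the authors trimmed reads with Trimmomatic 0.39 and quantified them with kallisto 0.46.1 against the GRCm38 transcriptome (release 103), and deposited estimated counts and TPM for each transcript and library. The labels name GRCh38, but the identifiers are mouse. The strand setting of the counting is not given in the sources used here. The authors left out 1 library of the ACL experiment for poor mapping. It is not named, so it may be among the 18 libraries used here.

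The deposited estimated counts were summed per gene and rounded, and the deposited TPM were summed per gene. Groups were compared with edgeR 4.0.16 in R 4.3.3 (quasi-likelihood test, TMM, filterByExpr, Benjamini-Hochberg adjustment over all genes tested), with calls at FDR at most 0.05 and at least 1.5-fold. Day 7 contralateral libraries entered only the fits that compare them. The study's random effect for pools could not be fitted, because the labels do not give pools. The steps were tested on simulated data. Alternatives used DESeq2 1.42.0, limma-voom (limma 3.58.1), other filters, scalings, thresholds and libraries. A fit of the other gene lists without day 7 contralateral replicate 1 was added after the data had been seen.

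All 10 members are named. Of every other list, genes called at day 7 against naïve or contralateral libraries are named if at most 6 (otherwise the 3 largest in each direction), with the most abundant gene and those at 3 counts or fewer everywhere. The members, lists and tests were chosen with earlier results of these data known.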

Additional observations from a re-analysis of the deposited data

Results flagged for a closer look

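Among the 10 adipocyte genes in the 6 naïve libraries, 1 value lay far from the others. Pparg in naïve replicate 2 was 22.4 CPM, the highest of its group, and its gap to the nearest library was 0.668 of the group's range, above Dixon's limit of 0.625 for 6 samples. Chance alone sets apart about 1 group in 20 by this measure.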

How the results depend on the processing

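The fold changes of the 10 members in 4 comparisons were taken under 28 settings, which gave 710 values. These comparisons were day 7 injured against naïve, day 7 contralateral and day 1 injured libraries, and the change of the injury effect. The settings with no fold limit and with FDR at most 0.01 changed only the thresholds. Their fold changes are those of the main fit and could not change sign. Of the 710 values none changed sign, 617 kept their side of the thresholds, 67 lost a call and 26 gained one. Against naïve mice, where 5 members were called, limma-voom called 2, FDR at most 0.01 left 1, and leaving out 1 library gave 1 to 7. Against the contralateral knee, also with 5, limma-voom called 1, an offset for transcript length gave 3, FDR at most 0.01 left 1, and leaving out 1 library gave 0 to 4. Against day 1 injured libraries, with 4, limma-voom called 1, a fit of only the groups compared gave 2, FDR at most 0.01 left 1, and leaving out 1 library gave 1 to 9. In the change of the injury effect, with 0, no filter gave 1, DESeq2 gave 3, protein-coding transcripts alone gave 1, and leaving out 1 library gave 0 to 5. The cause of these moves was not tested. The other 5 comparisons gave 0 members under every alternative run. No paired analysis was possible because the labels do not say which libraries share mice. Most groups held 3 libraries, pools may share mice, and Lep rested on as few as 15 counts.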
